A study of Mus musculus with 46 samples.

Results

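Broad domains of H3 trimethylated at lysine 4 (H3K4me3) that induced pluripotent stem cells (iPSCs) had and the starting fibroblasts did not were collected from peak lists of chromatin immunoprecipitation and sequencing (ChIP-Seq). A domain was an H3K4me3 peak of iPSCs with end minus start of 5 kb or more that no H3K4me3 peak of 5 kb or more in D0 overlapped. Of 36122 iPSC H3K4me3 peaks, 793 were 5 kb or wider, and 412 of these were such domains. The other 381 overlapped a broad D0 peak, and 1032 broad D0 peaks overlapped no broad peak of iPSCs. The domains were chosen by their H3K4me3 widths in iPSCs and D0, so both widths are given as a description without a test.

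H3K4me3 is deposited around the start sites of active or poised genes, usually over a narrow stretch. Exceptionally wide H3K4me3 domains are known to lie at genes that define the identity of a cell. H3.3 is a histone variant that is deposited outside DNA replication, above all at active genes and regulatory elements.

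D0 were mouse embryonic fibroblasts (MEFs) that carry an IRES-EGFP cassette behind the endogenous Oct4 (Pou5f1) gene, before infection. D3, D6, D9, D12 and D16 were cells 3, 6, 9, 12 and 16 days into conversion by retroviral pMXs vectors for Oct4, Sox2, Klf4 and c-Myc, so every cell after D0 may carry these transgenes. Days 6 and 9 were sorted by Thy-1 (T), a surface protein of fibroblasts, and days 12 and 16 by SSEA-1 (S), an antigen of pluripotent cells. D6T-, D9T-, D12S+ and D16S+ are the successful route, and D6T+, D9T+, D12S- and D16S- the unsuccessful one, which was profiled for H3.3 only. The iPSCs were kept without feeder cells, and whether they came from 1 clone is not given in the sources used here. ESD3 is the mouse embryonic stem cell line D3, also with H3.3 only. Another 4 H3.3 libraries followed conversion of MEFs to blood progenitors with Scl, Lmo2, Runx1 and Bmi1: MEF before induction, D4 at day 4, and sorted cKit+ and cKit- cells.

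Each group was 1 library, and no replicate spread was at hand for any value. The 7 H3K4me3 libraries held 15.8 (D16S+) to 35.4 (iPSCs) M tags. The share of tags in peaks was 30.4% in D0, 22.9% in D3, 34.8% in D6T-, 23.8% at D9T-, 9.27% for D12S+, 3.71% in D16S+ and 12.7% in iPSCs. A missing or narrow peak is thus no evidence that the mark was absent, and the part of enrichment in the widths was not tested. Of the 8 markers of pluripotent cells, Nanog, Sox2, Dppa4, Esrrb and Tdgf1 had a start site in a domain, while the iPSC peaks of Pou5f1 (4.26 kb), Utf1 (4.77 kb) and Zfp42 (4.70 kb) stayed just under the limit. None of the 8 fibroblast markers lay in a domain, and 6 of them lay in a broad peak of D0 alone. At Twist2, a mesenchymal transcription factor, the peak was 10.8 kb wide in D0 and 1.80 kb in iPSCs.

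The promoters of Nanog, Esrrb and Tdgf1 are shown because their domains carry a clear contrast between D0 and iPSCs: none of these genes had an H3K4me3 peak in D0 inside the later domain. Each sequence covers 250 bases before to 50 bases from the start site on, 5′ to 3′ on the strand of the gene, read from mm9. Capitals mark matches on either strand to the Oct-Sox composite, the octamer ATGCAAAT, the Klf motif GGGNGTGG, the Esrrb motif AAGGTCA and the E-box CACGTG. The AP-1 motif TGANTCA was counted but not marked. The octamer and the composite share letters.
Nanog (chr6:122657257-122657556, + strand): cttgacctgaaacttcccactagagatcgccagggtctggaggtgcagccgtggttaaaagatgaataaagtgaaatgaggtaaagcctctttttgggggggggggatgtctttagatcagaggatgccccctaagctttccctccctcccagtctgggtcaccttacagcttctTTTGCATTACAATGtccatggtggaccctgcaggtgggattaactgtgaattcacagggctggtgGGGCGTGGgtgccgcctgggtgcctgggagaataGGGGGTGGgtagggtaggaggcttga
Esrrb (chr12:87810817-87811116, + strand): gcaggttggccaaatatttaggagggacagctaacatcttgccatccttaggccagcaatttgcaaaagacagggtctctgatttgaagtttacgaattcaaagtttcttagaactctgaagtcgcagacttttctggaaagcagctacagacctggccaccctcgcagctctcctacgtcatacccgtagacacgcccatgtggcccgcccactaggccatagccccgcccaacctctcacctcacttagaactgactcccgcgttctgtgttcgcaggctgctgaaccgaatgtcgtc
Tdgf1 (chr9:110848613-110848912, - strand): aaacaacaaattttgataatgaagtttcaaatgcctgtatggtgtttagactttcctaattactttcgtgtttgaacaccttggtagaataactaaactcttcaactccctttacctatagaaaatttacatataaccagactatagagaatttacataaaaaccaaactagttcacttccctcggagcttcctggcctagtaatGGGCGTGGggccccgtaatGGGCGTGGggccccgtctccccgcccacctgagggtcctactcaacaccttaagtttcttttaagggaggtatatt

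The Nanog promoter held the composite at -75 to -62 from the start site and Klf matches at -10 to -3 and 24 to 31. Tdgf1 had Klf matches at -45 to -38 and -26 to -19, and the window of Esrrb held none of these letters. The composite was spelled after the site known in the Nanog promoter, so its presence there is no result. It was found at 1 place in all domains, at Nanog, and in 1 of 22372 protein-coding promoters of this length. Over the 408 promoters inside domains, the Klf motif was in 23.3% (95% Wilson interval 19.4% to 27.6%), beside 18.8% of all promoters. The E-box was in 10.8% (8.13% to 14.2%) beside 7.78%, the Esrrb motif in 2.70% beside 3.91%, the octamer in 0.98% beside 1.72%, and the AP-1 motif in 6.13% beside 6.79%. All promoters include those outside H3K4me3: 13699 of 22238 protein-coding symbols had a start site at any iPSC H3K4me3 peak. Over whole domains the Esrrb motif had 213.4 matches per Mb, against 173.6 in the 381 broad domains shared with D0, 160.7 in the broad domains of D0 alone and 174.9 in iPSC peaks under 5 kb. AP-1 had 243.4, 237.0, 275.9 and 223.8 matches per Mb in the same order. The Klf motif had 552.9, 627.4, 613.2 and 621.9, so over whole domains it was less dense than in the other sets. The domains had a median GC content of 49% and a median CpG ratio (observed over expected) of 0.43, both below those of the shared domains (52.2% and 0.53). These counts are a description of letters, and genes and regions are not replicates.

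The domains were 5 to 16.6 kb wide, with a median of 5.98 kb and quartiles of 5.46 and 7.26 kb, and 17 reached 10 kb. Together they covered 2.71 Mb. Their score per kb, tags per 10 M tags and kb, had a median of 29.0, against 31.7 in the shared domains and 16.4 in narrower iPSC peaks. On the D0 side, 45 domains had no D0 peak, 80 had one under 2.5 kb and 287 had one of 2.5 to 5 kb, with a median of 3.42 kb over all domains. In 85 domains 2 or more D0 peaks lay side by side, and D0 peaks covered 80% or more of the domain in 48. Just inside the limit were the domains of Psph and Cct6a (5.0 kb, D0 4.53 kb), of Hist1h1a, Hist1h3a and Hist1h4a (5.005 kb, D0 4.91 kb), Zfp706 (5.010 kb), Gtf2i (5.011 kb) and Nucks1 (5.013 kb). Just outside it were the iPSC peaks of Prdx1 (4.997 kb), Cpt1a (4.994 kb), Chd3 (4.993 kb), Ddn (4.990 kb) and Abtb1 (4.990 kb), of which all but Abtb1 (3.05 kb) were over 5 kb in D0.

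A protein-coding start site lay in 343 of the 412 domains, and 408 genes were hit, with 2 or more genes in 61 domains. Of the 69 domains without a start site, 38 lay in a gene body and 31 in neither. A domain held a whole gene in 45 cases. Domains were found on 20 chromosomes and 1 unplaced sequence. Chromosome 7 held 10.4% of them and 6.90% of all iPSC H3K4me3 peaks, and chromosome 13 held 1.21% and 4.42%. Start sites lay towards the 5′ end of the domains. In the 282 domains with 1 gene, the iPSC peak reached a median of 1.19 kb upstream and 4.83 kb downstream of the start site, and downstream was the longer side in 254. In D0 the peak over the same start site, where there was one (255 domains), reached 1.00 kb upstream and 2.40 kb downstream. The median length added between D0 and iPSCs was 0.088 kb upstream and 2.24 kb downstream, and more was added downstream in 214 of the 255 (83.9%). The difference in width thus lay mostly over the beginning of the transcribed region.

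**Figure D1:**
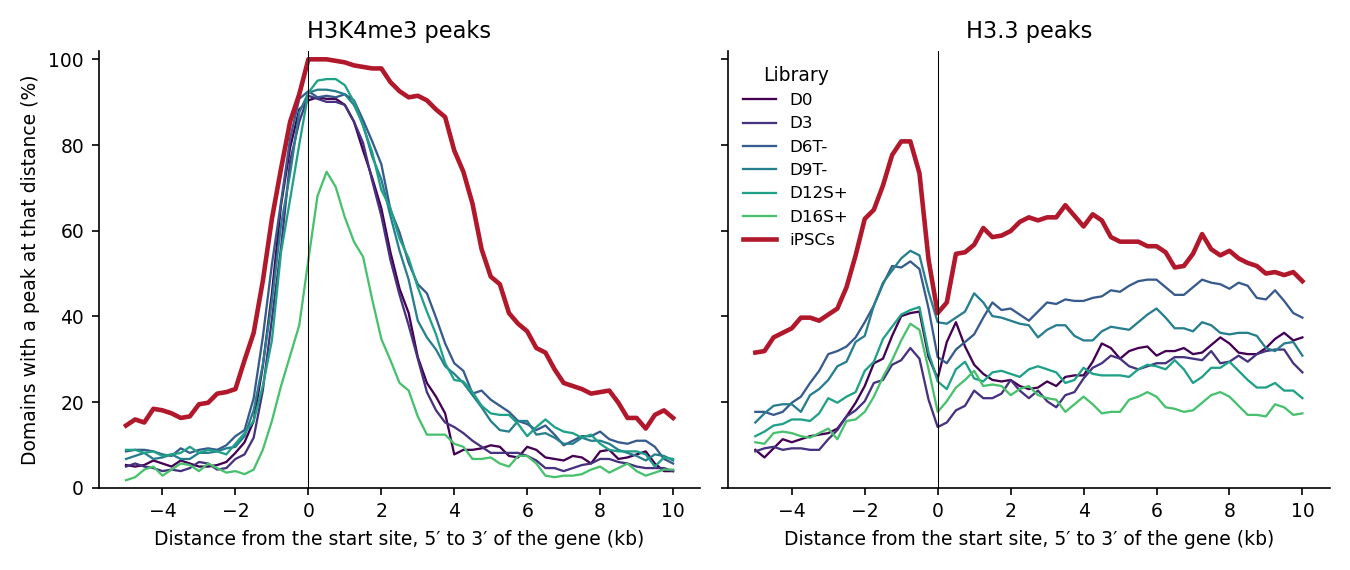
Share of the 282 domains with 1 gene that had an H3K4me3 peak (left) or an H3.3 peak (right) at each distance from the start site, in steps of 250 bp from 5 kb upstream to 10 kb downstream, with 1 line per library. At 4 kb downstream 78.7% of the domains had an H3K4me3 peak in iPSCs, 25.2% in D12S+ and 7.80% in D0, while H3.3 in iPSCs was at 80.9% 1 kb upstream, 40.8% at the start site and 63.1% 3 kb downstream.

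Which genes lay at the domains was counted in lists of known genes. All counts of this kind rest on the widths that chose the domains and are given without a test. Over all 22238 protein-coding genes, 406 symbols (1.83%) had a start site in a domain. Of 65 pluripotency genes it was 23 (35.4%), among them the transcription factors Nanog, Sox2, Esrrb, Sall4, Klf2, Nr5a2, Tbx3, Foxd3 and Zscan10, the ligands Nodal and Fgf4, the Nodal co-receptor Tdgf1, the DNA methyltransferase Dnmt3b and its cofactor Dnmt3l. Of 75 chromatin regulators it was 16 (21.3%), among them Suz12, Eed and Mtf2 of Polycomb repressive complex 2, the maintenance methyltransferase Dnmt1 and its partner Uhrf1, the H3.3 chaperones Atrx and Daxx, and H3f3a, which encodes H3.3 itself. The lists overlap, since Mtf2, Cbx7, Dnmt3b and Dnmt3l stand in both, and the 3 signalling genes Fgf4, Nodal and Tdgf1 are also pluripotency genes. A gene at a domain can be broad in D0 elsewhere: at another start site, Tbx3 had a peak of 8.88 kb in D0 and 8.73 kb in iPSCs. Of 43 epithelial genes 7 were hit, among them Cdh1, Elf3 and Pard6b, and of 63 signalling genes 4 (Ctnnb1, Fgf4, Nodal and Tdgf1). Nkx2-2 was the only one of 62 germ layer regulators and Zcwpw1 the only one of 29 germline genes. None of 59 fibroblast and mesenchymal genes was at a domain, while 24 (40.7%) were at a broad peak of D0 alone and 5 at a broad peak shared by D0 and iPSCs. None of 29 housekeeping genes was, while 12 (41.4%) were at a shared broad peak. Over all genes 4.96% were at a broad peak of D0 alone and 2.08% at a shared one, and of the 65 pluripotency genes it was 5 (7.69%) and 7 (10.8%). None of 34 hematopoietic and 27 extraembryonic genes was hit either.

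The libraries between D0 and iPSCs, which the rule did not use, show when the domains were already wide. A peak of 5 kb or more overlapped 35 of the 412 domains in D3 (8.50%, 95% Wilson interval 6.17% to 11.6%), beside 2.96% of all iPSC H3K4me3 peaks. In D6T- it was 103 domains (25%, 21.1% to 29.4%) beside 5.68%, at D9T- 77 (18.7%, 15.2% to 22.7%) beside 3.53%, in D12S+ 71 (17.2%, 13.9% to 21.2%) beside 1.39%, and in D16S+ 4 (0.97%, 0.38% to 2.47%) beside 0.0498%. The intervals cover counting error only, and wide regions meet other peaks more often than narrow ones. In the 381 shared domains, which are of similar width, the share was 76.1% in D3, 88.7% in D6T-, 75.3% at D9T-, 49.1% in D12S+ and 3.15% in D16S+, so the decline to D16S+ was seen there too. An H3K4me3 peak of any width was at 367 domains in D0, 365 in D3, 378 in D6T-, 382 at D9T-, 399 in D12S+ and 361 in D16S+, against 54.3%, 51.7%, 56%, 53.7%, 53% and 35.2% of all iPSC peaks. The median of the widest peak was 3.42 kb in D0, 3.26 kb in D3, 3.94 kb in D6T-, 3.60 kb at D9T-, 3.41 kb in D12S+ and 1.61 kb in D16S+. All were below the median of 5.98 kb in iPSCs, which the rule itself sets above 5 kb.

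The libraries had unequal numbers of wide peaks, from 1575 of 5 kb or more in D6T- to 17 in D16S+. When the 793 widest peaks of each library were taken instead, as many as iPSCs had, the share of domains with such a peak was 8.01% in D3, 11.7% in D6T-, 14.6% at D9T-, 29.9% in D12S+ and 25.7% in D16S+. The same shares over all iPSC peaks were 2.83%, 3.27%, 2.88%, 2.57% and 2.21%, and over the 381 shared domains 74.3%, 65.6%, 66.9%, 68.2% and 41.5%. The narrowest of these 793 peaks was 5.06 kb in D3, 6.12 kb in D6T-, 5.36 kb at D9T-, 4.24 kb in D12S+ and 2.39 kb in D16S+, so some of those in D12S+ and D16S+ were under 5 kb. Of each library's own peaks of 5 kb or more, 4.21% lay at these domains in D3, 6.67% in D6T-, 7.81% at D9T-, 17.4% in D12S+ and 23.5% (4 of 17) in D16S+. Those at broad domains of D0 alone made up 46.0%, 34.2%, 34.0%, 23.1% and 0% in the same order. Among the widest peaks, the domains thus held a larger share in D12S+ and D16S+ than in D3, D6T- or D9T-, while the count at a fixed width was largest in D6T-.

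**Figure D2:**
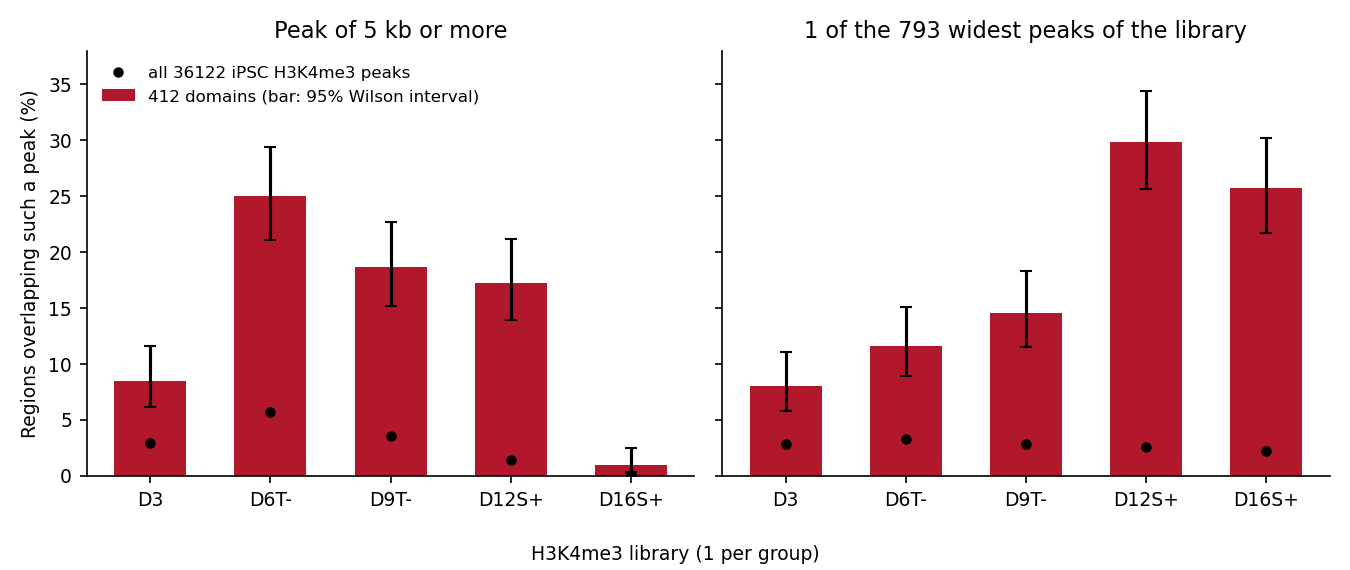
Share of the 412 domains that a peak of 5 kb or more (left) or 1 of the 793 widest peaks (right) of each H3K4me3 library overlapped, with 95% Wilson intervals, and the same share of all 36122 iPSC H3K4me3 peaks as points. At a fixed width the share was 25% in D6T- and 0.97% in D16S+, and with an equal number of widest peaks it was 11.7% and 25.7%.

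Most domains, 265 of 412 (64.3%), were broad in none of the 5 libraries between D0 and iPSCs. In 76 a broad peak was present in D3, D6T- or D9T- but not in D12S+. Leaving out D16S+, 10 domains were broad in every library from D3 on, 18 from D6T- on, 13 from D9T- on and 30 from D12S+ on. Only Serbp1 and the domain of Hnrnpf and 4933440N22Rik were broad in all 5. At Serbp1, an mRNA-binding protein gene, the widest peak was 4.82 kb in D0, 5.06 in D3, 9.41 in D6T-, 5.07 at D9T-, 5.39 for D12S+, 6.04 in D16S+ and 10.4 kb in iPSCs. The Hnrnpf domain, at a splicing factor gene, had 4.87, 6.77, 6.87, 7.30, 5.62, 5.70 and 9.01 kb. Arid5b, a DNA-binding chromatin regulator, was wider in D3 (10.7 kb), D6T- (11.3 kb) and D9T- (11.7 kb) than in iPSCs (8.70 kb), with 3.56 kb in D0. Ezr, which encodes the membrane-cytoskeleton linker ezrin, had 2.99 kb in D0 and 7.52 to 8.93 kb from D3 to D12S+, against 7.97 kb in iPSCs. Arid5b and Ezr thus had peaks near or above their iPSC width from D3 to D9T-, while Serbp1 and Hnrnpf were narrower in D3 than in iPSCs.

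At the fixed width of 5 kb, and unlike all 412 domains together, the pluripotency genes had most broad domains in D12S+. Of their 23 domains, 0 were broad in D3, 3 in D6T-, 4 at D9T-, 8 in D12S+ and 2 in D16S+. Of the 367 domains with no gene of any list it was 34, 94, 68, 59 and 2. Domains that were narrow in D0 also had their largest count in D12S+. Of the 80 with a D0 peak under 2.5 kb it was 1, 6, 8, 11 and 1. Of the 45 with no D0 peak it was 0, 1, 1, 3 and 0. Both sets include some pluripotency domains. The order is thus not particular to pluripotency genes, and the part of the narrow D0 peaks in it was not tested. The median widest peak of the pluripotency domains was 2.37 kb in D0, 2.35 in D3, 3.07 in D6T-, 2.81 at D9T-, 3.65 in D12S+ and 1.80 in D16S+.

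Sall4, a zinc finger factor of embryonic stem cells, had the widest domain (chr2:168576871-168593442), which spanned 4 of its 5 exons. Its widest H3K4me3 peak was 3.47 kb in D0, 2.94 in D3, 7.35 in D6T-, 7.44 at D9T-, 7.06 for D12S+, 5.44 in D16S+ and 16.6 kb in iPSCs. Already wide in D6T-, it still had a peak of over 5 kb in D16S+. Nanog, the homeobox factor of naive pluripotency (chr6:122655109-122663579, touching all 5 exons), had no peak in D0, D3 or D6T-, 2.46 kb at D9T-, 5.04 for D12S+, 4.66 in D16S+ and 8.47 kb in iPSCs. Esrrb, an orphan nuclear receptor (chr12:87809153-87817243), was listed with no peak up to D6T-, then with 0.625 kb at D9T-, 3.29 for D12S+, 2.48 in D16S+ and 8.09 kb in iPSCs. Its domain lies at an internal start site and holds 1 of 8 exons, and another start site of the gene had a D0 peak of 2.47 kb. Tdgf1 (chr9:110844320-110849703) had no peak in D0, 0.626 kb in D3, 0.867 in D6T-, 1.13 at D9T-, 4.83 for D12S+, 1.35 in D16S+ and 5.38 kb in iPSCs. Dppa4, a chromatin-associated factor of pluripotent cells (chr16:48283517-48288640), had no peak before D12S+ (1.79 kb) and 5.12 kb in iPSCs. Within these 4 domains, which had no D0 peak, the first peak over 1.5 kb was thus at D9T- or D12S+.

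L1td1, an RNA-binding protein gene of pluripotent cells (chr4:98392632-98403496), had 2.14, 2.41, 3.75, 4.71, 7.87, 3.03 and 10.9 kb from D0 to iPSCs. Mybl2, a cell cycle transcription factor (chr2:162876025-162887409), stood between 3.09 and 3.59 kb from D0 to D9T-, at 10.5 kb in D12S+ and at 11.4 kb in iPSCs. Mtf2 (chr5:108489485-108502928) stayed at 1.80 to 3.33 kb in all libraries before iPSCs (13.4 kb). Sox2 (chr3:34546999-34554279) was widest in D12S+ (9.46 kb, iPSCs 7.28 kb). Reads from the Sox2 transgene and from the same exon of the endogenous gene cannot be told apart in libraries after D0. The same holds for D0 if its cells had been infected. Foxd3 was broad in D6T- (8.14 kb) and again in iPSCs (5.96 kb), with 2.5 to 3.26 kb in D0, D3, D9T- and D12S+. Dnmt3l had 1.19 kb in D0, no peak from D3 to D9T-, 1.01 kb in D12S+ and 8.51 kb in iPSCs.

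**Figure D3:**
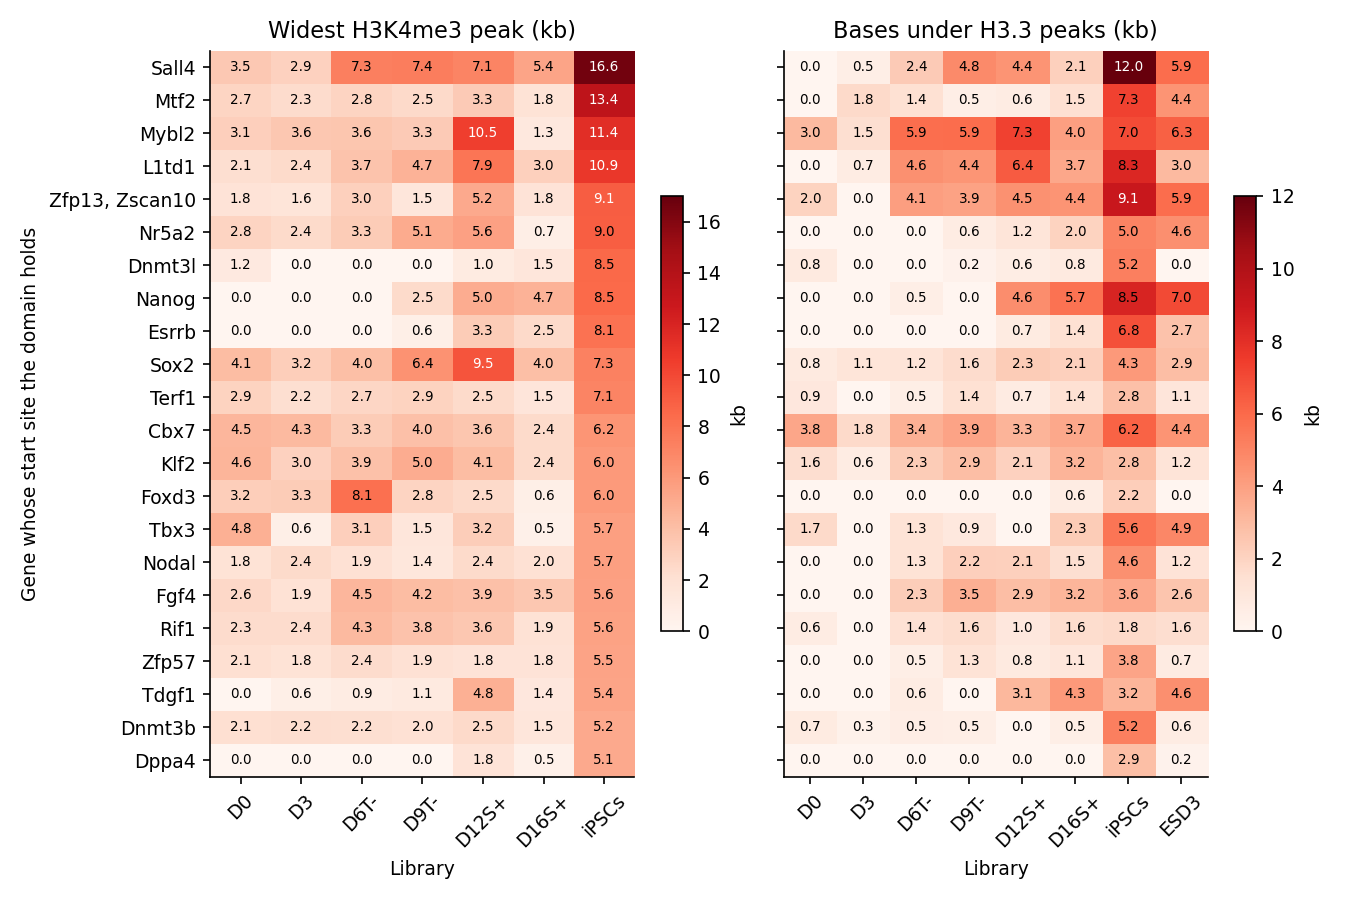
Width of the widest H3K4me3 peak (left) and bases under H3.3 peaks (right), both in kb, in 22 of the 23 domains that hold a start site of a pluripotency gene, by library. Sall4 heads both panels in iPSCs (16.6 kb of H3K4me3 and 12.0 kb under H3.3). In the right panel Foxd3 has no bases under H3.3 up to D12S+ and 0.637 kb in D16S+.

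Other wide domains lay at genes outside these lists. Lemd1 (chr1:134085978-134101917) had 3.14 kb in D0, 3.42 in D3, 16.2 in D6T-, 15.6 at D9T-, 5.0 in D12S+, no peak in D16S+ and 15.9 kb in iPSCs. Its peak of D6T- was therefore as wide as that of iPSCs. Epha2, an ephrin receptor (chr4:140856538-140870671), had 3.96 kb in D0, 8.13 in D3, 4.41 in D6T-, 3.53 at D9T-, 10.9 for D12S+, 0.500 in D16S+ and 14.1 kb in iPSCs. Zfp280b, a zinc finger gene (chr10:75486607-75499117), was at 2.04 to 2.94 kb in all 6 libraries before iPSCs and at 12.5 kb there. Eef1g, a translation elongation factor (12.6 kb), Zfp740 (12.5 kb), Mkrn1 with Gm10244 (12.5 kb), Phf17 (11.8 kb), Nufip2 (11.7 kb) and G3bp2 (11.5 kb) completed the widest 12. Among epithelial genes, Cdh1, which encodes E-cadherin (chr8:109126597-109132829), had 1.82 kb in D0, 1.78 to 2.77 kb in the libraries between and 6.23 kb in iPSCs. Elf3, an epithelial transcription factor, was broad earlier, in D9T- (5.92 kb) and D12S+ (5.29 kb), and had 5.54 kb in iPSCs. The domain of the polarity gene Pard6b was 6.61 kb in iPSCs. Daxx had 8.0 kb in iPSCs and 2.88 to 4.61 kb before, and the beta-catenin gene Ctnnb1 5.94 kb and 1.61 to 5.28 kb.

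The widest domains without a start site were near Nfkb1 (chr3:135211173-135221153, 9.98 kb, none to 2.15 kb before), near Epha2 (chr4:140839616-140849557, 9.94 kb, 1.64 kb in D0) and near Ccr4 (chr9:114433626-114443361, 9.73 kb, 2.76 kb in D0 and 7.21 kb in D12S+). These names give the nearest start site only. The domain near Nfkb1 overlapped the gene body of Manba, and that near Ccr4 the gene body of Trim71. Of the 45 domains with no D0 peak, only 31.1% held a start site, against 66.3% of those with a D0 peak under 2.5 kb and 96.2% of those with one of 2.5 to 5 kb.

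H3.3, which the rule did not use, was measured as the share of domain bases under H3.3 peaks. It was 29.4% in D0, 24.4% in D3, 43.3% in D6T-, 42.9% at D9T-, 32.6% for D12S+, 27.5% in D16S+ and 66.0% in iPSCs, and 31.1% in ESD3. Among unsuccessful cells, D6T+ had 22.4%, D9T+ 29.5%, D12S- 52.6% and D16S- 36.4%. In the blood conversion it was 18.9% in MEF, 63.3% in D4, 3.89% in cKit+ and 4.55% in cKit-. Levels also differed between libraries over all iPSC H3K4me3 peaks, with 26.7% in D0, 45.5% in iPSCs, 61.8% in D4 and 2.45% in cKit+. The share of tags in H3.3 peaks was 19.08%, 13.96%, 37.2% and 1.65%. From D0 to iPSCs this share was thus lower while the cover was higher. These regions were called in iPSCs, so their cover is no measure of the library alone. At least 1 base under H3.3 was found in 322 domains in D0 (78.2%) beside 37.5% of all iPSC peaks, and in 409 in iPSCs (99.3%) beside 59.2%. In the 381 shared domains it was 95.5% and 97.1%.

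Between D0 and iPSCs, H3.3 cover was higher in iPSCs in 362 of the 412 domains (87.9%), beside 46.1% of all iPSC H3K4me3 peaks, and lower in 47, beside 16.5%. In the shared domains it was higher in 51.7% and lower in 45.9%, and in broad domains of D0 alone higher in 28.6% and lower in 66.1%. The median difference was 38 percentage points in the domains, 1.33 in the shared domains and -14.1 in those of D0 alone. Over all bases of the domains the difference was 36.6 points. It was 17.8 points after the difference over all iPSC peaks was taken off. It turned to -14.6 points when only H3.3 peaks of at least 4 fold over input were kept, a limit that 22.6% of H3.3 peaks passed in iPSCs and 55.1% in D0, so the direction of the absolute difference depends on the peak limit.

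**Figure D4:**
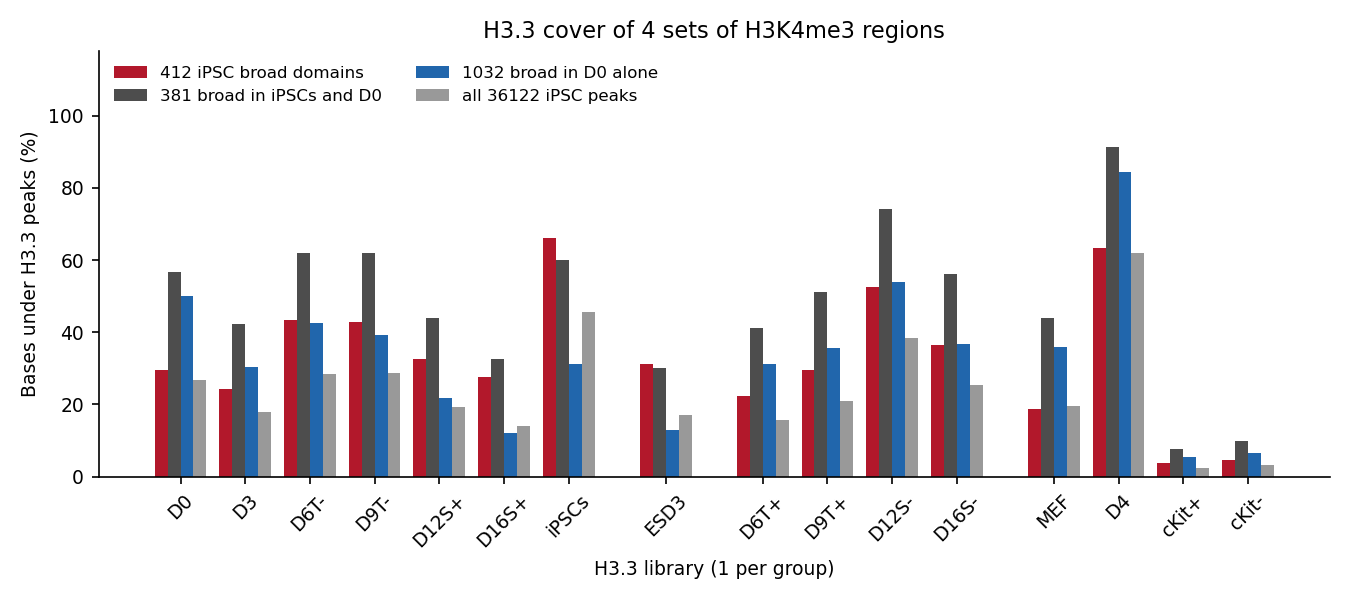
Share of bases under H3.3 peaks in the 412 iPSC broad domains, the 381 broad domains shared with D0, the 1032 broad domains of D0 alone and all 36122 iPSC H3K4me3 peaks, by H3.3 library. The domains are the most covered of these sets in iPSCs (66.0%) and ESD3 (31.1%), and below both D0 sets in D0 (29.4%) and MEF (18.9%).

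A ratio within each library does not depend on its number of peaks in the same way. H3.3 cover of the domains over that of the shared domains was 0.52 in D0, 0.57 in D3, 0.70 in D6T-, 0.69 at D9T-, 0.74 for D12S+, 0.84 in D16S+ and 1.1 in iPSCs. It was 1.03 in ESD3, 0.43 in MEF, 0.69 in D4, 0.51 in cKit+ and 0.46 in cKit-. With the deposited peaks both pluripotent libraries were thus above 1 and all others below. With the 25637 top-scoring peaks of each library the ratio was 0.42 in D0, 1.12 in iPSCs and 1.03 in ESD3. With peaks of at least 4 fold over input it was 0.44 in D0, 0.85 in iPSCs and 0.89 in ESD3, so the order of D0 and iPSCs was the same in these 3 peak lists, but the ratio in the pluripotent libraries no longer passed 1, and MEF, with 4.03% of its peaks left, was at 1.09. Set against all iPSC H3K4me3 peaks the ratio was 1.1 in D0, 1.36 in D3, 1.53 in D6T- and 1.49 at D9T-. It was 1.68 in D12S+, 1.98 in D16S+, 1.45 in iPSCs and 1.81 in ESD3, so iPSCs were not highest. At 4 fold it was 1.09 in D0 and 0.83 in iPSCs. This ratio was chosen after the values had been seen.

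The successful and unsuccessful fractions were compared day by day. The difference in H3.3 cover of the domains, successful minus unsuccessful, was 20.9 points on day 6, 13.4 on day 9, -20.0 on day 12 and -8.85 on day 16, with a mean of 1.36 points (p = 0.875, exact permutation of the signs of the 4 days, two-sided). The differences over all iPSC peaks were 12.6, 7.96, -19.0 and -11.6 points. With 4 days the smallest p that can be reached is 0.13. The ratio to the shared domains was higher in the successful fraction on 4 of 4 days, by 0.15, 0.11, 0.032 and 0.20 (mean 0.12, p = 0.13 by the same exact test, the smallest it can give). At 4 fold over input it was higher on 3 of 4 days (mean 0.085, exact p = 0.25). No route difference passed a limit of 0.05, which this design cannot reach.

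**Figure D5:**
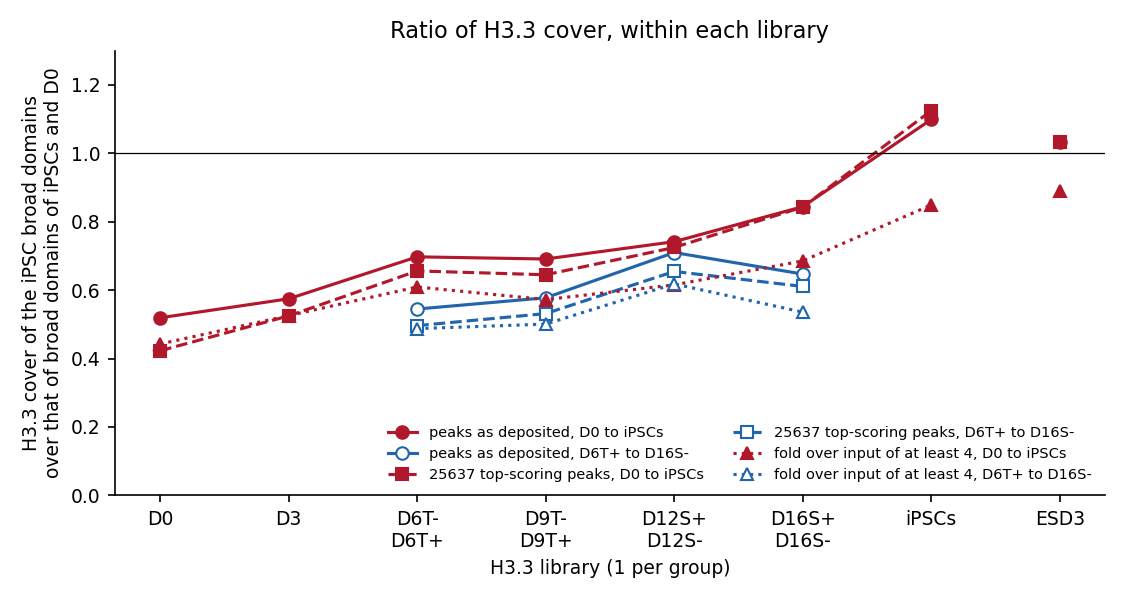
H3.3 cover of the 412 iPSC broad domains divided by that of the 381 broad domains shared with D0, by H3.3 library, for the successful route from D0 to iPSCs with ESD3 (filled) and the unsuccessful fractions (open), under 3 peak lists. With the deposited peaks the ratio is 0.52 in D0 and 1.1 in iPSCs, and the line at 1 marks equal cover.

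The domains differed among themselves in where H3.3 stood at the start. Those with no D0 H3K4me3 peak had 7.51% of their bases under H3.3 in D0 and 70.1% in iPSCs, those with a D0 peak under 2.5 kb 20.9% and 75.3%, and those with one of 2.5 to 5 kb 35% and 62.8%. The 23 pluripotency domains had 8.93% in D0, 4.60% in D3, 18.9% in D6T-, 22.3% at D9T-, 27.1% for D12S+, 28.5% in D16S+ and 66.0% in iPSCs, and 36.6% in ESD3. In MEF they had 5.34%. The 16 chromatin regulator domains had 31.5% in D0 and 64.9% in iPSCs, close to the 30.9% and 66.2% of the 367 domains in no list, and the 7 epithelial domains 16.2% and 78.7%. Within a library, H3.3 covered more of the domains that were broad there: 48.3% against 22.0% in D3, 60.3% against 37.2% in D6T-, 59.0% against 38.7% at D9T- and 43.5% against 29.7% in D12S+. In D16S+, with 4 broad domains, it was 20.9% against 27.7%. The domains broad in D3 also had more H3.3 in D0 (46.3% against 27.7%), as had those broad in D6T- (39.1% against 25.9%). For those broad in D9T- the D0 values were 30.7% against 29.1%, and for D12S+ 28.8% against 29.6%.

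Among the 343 domains with a start site, the largest gains of bases under H3.3 from D0 to iPSCs were at Sall4, Zfp280b, Nanog, L1td1 and Mreg. The domain near Epha2 without a start site, with 1.53 kb in D0 and 9.94 kb in iPSCs, gained more than L1td1 and Mreg. Sall4 had none in D0, 0.500 kb in D3, 2.36 in D6T-, 4.80 at D9T-, 4.43 in D12S+, 2.11 in D16S+, 12.0 in iPSCs and 5.89 kb in ESD3, but also 7.75 kb in the unsuccessful fraction D12S-. Nanog had none in D0, D3 or D9T-, 0.500 kb in D6T-, 4.65 in D12S+, 5.68 in D16S+, 8.47 in iPSCs, its whole domain, and 6.99 kb in ESD3. In the unsuccessful fractions Nanog had 2.06 kb in D12S- and 0.500 kb in D16S-. Zfp280b had at most 0.736 kb before iPSCs (11.2 kb) and 5.46 kb in ESD3. Mreg, the melanoregulin gene, had 0.861 kb in D0, at most 0.500 kb from D3 to D16S+ and 8.83 kb in iPSCs, but only 0.592 kb in ESD3. L1td1 had none in D0, 4.57 kb in D6T-, 6.45 in D12S+, 8.31 in iPSCs and 9.42 kb in D12S-. H3.3 at Sall4, Nanog and L1td1 was thus not limited to the successful route. At Zfp280b none was found in D6T+, D9T+ or D12S-, but the successful fractions had at most 0.736 kb. In D4 of the blood conversion Zfp280b had 1.025 kb.

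The largest losses were smaller. Over all domains the largest was near Plec (chr15:76006915-76012292, no start site), with 5.38 kb under H3.3 in D0 and 0.500 kb in iPSCs, a domain named after its values were seen. Among domains with a start site, the domain of Slc10a7 and Rbmxrt had 3.14 kb under H3.3 in D0 and none in iPSCs, Eif4ebp1, a repressor of translation initiation, 6.81 and 4.33 kb, and the domain of Akt1s1 and Tbc1d17 6.91 and 4.71 kb. At Nkx2-2, a neural homeobox gene (5.10 kb of H3K4me3 in iPSCs), no H3.3 peak was called in the libraries from D0 to iPSCs or in ESD3. In iPSCs 409 of the 412 domains had some H3.3. The Nkx2-2 domain had a score per kb of 13.2, against a median of 29.0 over the domains, and its D0 peak was 4.32 kb wide.

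H3K36me3, a mark of transcribed gene bodies, covered 15.9% of the domain bases in D0, 11.4% in D3, 8.72% in D6T-, 18.2% at D9T-, 1.5% for D12S+, 1.61% in D16S+ and 9.00% in iPSCs. All iPSC H3K4me3 peaks had 7.27% in D0 and 3.45% in iPSCs. Peaks of H3K36me3 held 31.3% of tags in D0, 1.07% in D12S+ and 2.88% in iPSCs, and its part in these values was not tested. Mtf2 had 5.57 kb under H3K36me3 in D0 and 2.15 kb in iPSCs, and Nanog, Esrrb, Tdgf1 and Dppa4 had none in D0.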

How the data were processed

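ChIP-Seq of H3.3 (16 libraries), H3K4me3 (7) and H3K36me3 (7) was analysed from deposited peak lists, and another 16 samples were inputs, which enter only through the input value of each peak. Reads were mapped by the authors to mm9 with STAR, with at most 2 mismatches and without reads at several loci, and peaks were called by the authors for each library separately with HOMER findPeaks in histone style, which stitches enriched 500 bp windows, so width depends on depth and enrichment. Versions of STAR and HOMER are not given in the sources used here. The score is a signal in the deposited lists (normalized tag count per 10 M tags of the library). The deposited fold is a ratio of sample to input tags, at least 2 for H3.3 and 4 for the other marks. The deposited p-value is a Poisson p against input, at most 0.0001 and not adjusted, and was not used.

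Domains, covered bases and overlaps (1 bp or more) were computed with Python 3.11.15, numpy 2.4.6 and pandas 2.3.3, and sequences were read with pysam 0.24.0. Genes and start sites were the 22238 protein-coding symbols and their coding transcripts in GENCODE vM1 on mm9 (NCBIM37), and "near" names the gene of the nearest start site. Interval code was tested on simulated peaks. Shares carry 95% Wilson intervals, and the route difference an exact sign-flip test, since each group had 1 library. Whether libraries came from separate cultures is not given. The members, gene lists and tests were chosen with earlier results of these data known. Named domains were the 12 widest with a start site, all with a pluripotency gene, up to 4 widest of each other list, the 5 largest gains and 3 largest losses of H3.3 among domains with a start site, the 3 widest without a start site, the widest that were broad from D3 on, and 5 on each side of the limit. Alternatives were widths of 4 and 8 kb, peaks under 2 kb apart joined, fold limits of 8 (H3K4me3) and 4 (H3.3), equal numbers of peaks, autosomes only, an overlap of 0.5, and domains with over 3 times the median input left out. Ratios to other regions, the subtracted values and the use of the gene's own 5′ end were added after seeing the data. Values of some genes and promoters that the rule names are not reported here.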

Additional observations from a re-analysis of the deposited data

Results flagged for a closer look

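Input tags, which no comparison uses on its own, were dense at 5 of the 412 domains, as at 92 of all 36122 iPSC H3K4me3 peaks. Input density, tags per kb relative to the median of all iPSC H3K4me3 peaks, was over 3 in them, while the median over the domains was 1.35. It was 8.18 at the domain of 2610305D13Rik (chr4:147011438-147016968), 6.49 at Gm13242 (chr4:145260246-145266325), 4.82 at Gm13051 (chr4:146064326-146071055), 4.66 at the zinc finger gene Zfp600 (chr4:146123822-146129057) and 3.97 at the domain near Rex2 (chr4:145850368-145856013). All 5 lie within a short stretch of chromosome 4. None had an H3K4me3 peak in D0, D3, D6T- or D9T-, and the widest peak in D12S+ or D16S+ was 1.27 kb, at Gm13051. In iPSCs the domains were 5.24 to 6.73 kb wide and 3.91 to 5.17 kb of them lay under H3.3, with 0.804 to 2.70 kb in ESD3 and none in D0. Why input was dense there was not tested, and without these 5 domains 407 remain.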

How the results depend on the processing

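The number of domains was 412, and 403 on autosomes, 407 without high input and 419 when a D0 peak had to cover at least 0.5 of the domain. It was 651 at 4 kb, where 282 of the 412 overlapped such a domain, 97 at 8 kb, 916 when peaks less than 2 kb apart were joined and 94 at a fold of at least 8. The share of domains broad in D3 was 5.15% at 8 kb and 16.0% at fold 8. In D6T- it was 30.7% at 4 kb, 39.4% at fold 8 and 11.7% with the 793 widest peaks. In D9T- it was 9.28% at 8 kb, 24.5% at fold 8 and 14.6% with the widest peaks, and in D12S+ 13.4%, 7.45% and 29.9%. In D16S+ it was 0% at 8 kb and at fold 8, 3.71% with joined peaks and 25.7% with the widest peaks. H3.3 cover in iPSCs was 71.2% at 8 kb, 59.5% with equal numbers of peaks, 5.73% at a fold of at least 4 and 99.3% when counted as domains touched. The difference from D0 was 21.1 points by domains touched, 17.8 after subtraction and -14.6 at fold 4. The mean route difference was -5.86 points at fold 4 and -5.15 to 8.48 with a day left out: negative without day 6 or day 9 and positive without day 12 or day 16. The cause of these shifts was not tested. Counts of start sites and of pluripotency genes stayed within 1.5 times under the other definitions of a start site (307 to 357 domains, 16 to 28 genes) and were not recomputed for other sets of domains. No paired analysis was possible because each group had 1 library, so replicate numbers pair no samples. The route test pairs fractions by day instead. The depth and enrichment of D12S+ and D16S+ limit every statement on late widths.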

Other observations

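Gene families that the lists did not hold were noticed among the domains and counted afterwards, so these counts have no test. Of 148 genes of the ribosomal protein families Rpl and Rps, 16 had a start site in a domain, 22 in a broad domain shared with D0 and 9 in a broad domain of D0 alone (10.8%, 14.9% and 6.08%). Over all protein-coding genes these shares were 1.83%, 2.08% and 4.96%. Their 16 domains were short, 5.03 to 7.20 kb, and had a median widest peak of 4.25 kb in D0, 4.05 in D3, 5.10 in D6T-, 4.00 at D9T-, 3.38 in D12S+ and 2.78 kb in D16S+. A peak of 5 kb or more was at 5 of them in D3 and 9 in D6T-, but at 1 at D9T- and 0 in D12S+ and D16S+. H3.3 covered 67.3% of their bases in D0 and 69.9% in iPSCs, unlike the 29.4% and 66.0% of all domains.

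Of 386 genes named Zfp or Zscan, 20 had a start site in a domain, 9 in a shared broad domain and 11 in a broad domain of D0 alone (5.18%, 2.33% and 2.85%), so the share at shared domains was close to that over all genes. The 19 domains concerned had a median widest peak of 2.88 kb in D0 and 3.60 kb or less in the libraries between, and were broad in 0 cases in D3, 2 in D6T-, 1 at D9T-, 4 in D12S+ and 0 in D16S+. Their H3.3 cover was 25.1% in D0 and 75% in iPSCs.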
